A study of Mus musculus with 4 samples.

Results

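The genes described here are 48 genes of the skeletal muscle fibre, taken as a named list of contractile, calcium handling and fuel supply genes, by a rule that uses no measured value but was written with earlier results of these data known. They are 48 of the 17962 named genes that could be tested on a two-colour oligonucleotide microarray of the mouse middle ear. A gene was found on the array by the RefSeq accession of its probes, and where it had several of its 61 probes in all, the brightest was read. The study exposed mice to diesel exhaust particles (DEP), a mixture of soot, polyaromatic hydrocarbons and metals, and compared gene expression in the DEP-exposed ear with that in the control ear. The 9 male BALB/c mice were 6 to 10 weeks old, and exposed animals inhaled DEP for 1 h on each of 5 days. All were killed on day 14, when the temporal bone with the middle ear was taken. The labels give the control treatment as none, and neither they nor the methods say how many mice stand behind an extract. Each of the 4 arrays carried an extract labelled DEP in the Cy5 (red) channel and an extract labelled control in the Cy3 (green) channel, which makes 4 DEP and 4 control extracts.

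Skeletal muscle contracts when myosin of the thick filament pulls on actin of the thin filament. Calcium released from the sarcoplasmic reticulum starts this by binding the troponin complex on the thin filament, and pumps take the calcium back. Fast and slow fibres build the same machine from different isoforms of myosin, myosin light chain, troponin and calsequestrin, while embryonic and perinatal myosins are used during development and repair. The middle ear holds the tensor tympani and stapedius, small striated muscles attached to the ossicles, and the jaw and other head muscles lie against the temporal bone. Which muscle was in an extract is not stated in the sources used here.

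All 48 genes were measured, 45 of them well above background in each of the 8 extracts, and none of their spots was saturated. Spots per array numbered 43020, and between 23342 and 27167 probes per channel were well above background. The presence of muscle was plain in both channels, with the processed signal of the actin gene Acta1 between 65597 and 137437 in the DEP extracts and between 41090 and 189834 in the control extracts. In bulk tissue, a lower share of muscle in an extract and less RNA per muscle fibre cannot be told apart. All ratios below are log2 ratios of the DEP over the control channel within an array, so that 1 is a 2-fold difference.

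The direction of these ratios was taken from the source names in the labels, although the labels list both treatments under the Cy5 channel. This direction opposes the study's. Of 25 tested genes named as raised in its text, 24 had a mean ratio below 0 here, and of 11 named as lowered, 9 had a mean ratio above 0. The study also reports qRT-PCR that went in its own direction. By its text, Chrm1 and Epo were raised, and Esr1, Sos1, Cd4 and Ifna1 were lowered. For the muscarinic receptor gene Chrm1, named as raised, the probe was dim, well above background in the DEP extract on 2 arrays and in the control extract on 3, and the ratios were -1.39, 0.14, -3.0 and -0.59, with a mean of -1.21 ± 1.35 (limma adjusted p = 0.305). The dyes were not swapped, so that a dye effect and the treatment cannot be told apart. The ratios of arrays 1 and 4 were also opposed, with a Pearson correlation of -0.22 across 31577 probes and of -0.36 across the brightest probes of 17299 named genes. Across the same probes the other pairs of arrays ranged from 0.13 (arrays 2 and 4) to 0.61 (arrays 1 and 2). The direction of individual arrays is thus not settled. Ratios are therefore given per array, and counts above and below 0 over a list's mean ratios are given with the sign turned as well.

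Over the 4 arrays, on the deposited normalization, no muscle gene passed the test between DEP and control after adjustment. The mean ratio was above 0 for 31 genes and below 0 for 17, a split that becomes 17 above and 31 below if the sign is turned, and 43 above and 5 below (turned, 5 and 43) if each array is instead centred on its median after normexp background correction. None of the 48 had a mean ratio past 2-fold, against 6.21% of all named genes, and by limma none passed an adjusted p of 0.05, as was the case for all named genes. An unadjusted p under 0.05 by limma was reached by 2 of the 48, against 16.7% of all named genes. These were Myh3, higher in DEP (turned, lower), where the background in that direction was 9.19%, and Neb, lower in DEP (turned, higher), where it was 7.5%. The signals of the 4 DEP and the 4 control extracts overlapped for all 48 genes, while 2.87% of all named genes did not overlap. The median of the 48 mean ratios was 0.06, beside 0.04 over all named genes. Leaving out array 1 raised the count with an unadjusted p under 0.05 by limma to 11 of the 48, beside 15.5% of named genes. It was 2 without array 2 (8.53% of named genes), 1 without array 3 (9.5%) and 3 without array 4 (18.3%). Median centring raised it to 19, all higher (turned, lower), where 32.1% of named genes were called in that direction, and put 4 genes past 2-fold in it, beside 1.67% of named genes. Across 4 arrays an exact two-sided sign-flip test cannot give a p below 0.125.

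Most muscle genes lay on the same side of 0 on arrays 1, 3 and 4, below it on array 1 and above it on arrays 3 and 4, while array 2 was mixed. Their median ratio was -0.77 on array 1, -0.16 on array 2, 0.64 on array 3 and 0.62 on array 4, while the median over all named genes stayed between -0.03 and 0.08. The ratio was above 0 for 3 of the 48 genes on array 1, beside 47.8% of the named genes with a ratio on every array, and for 19 on array 2, beside 60.2%. It was above 0 for 45 on array 3, beside 53.1%, and for 43 on array 4, beside 56.9%. A ratio below 0 on array 1 and above 0 on arrays 3 and 4 was found for 41 of the 48, beside 18.1% of 17299 named genes with a ratio on every array. The stricter order of below 0 on arrays 1 and 2 and above 0 on arrays 3 and 4 was found for 27 of the 48, beside 6.79%. Only 2 of the 48 kept a single sign on all 4 arrays, Myh3 and Neb, beside 27.4% of the named genes. The median SD over the 4 arrays was 0.76 for the muscle genes and 0.33 for all named genes. With median centring the medians over the muscle genes were -0.13, 0.08, 1.25 and 1.11, beside 0.1, 0.08, 0.3 and 0.23 over all named genes, and 23 of the 48 were below 0 on array 1 and above 0 on arrays 3 and 4. These orders of the arrays were chosen after the values had been seen and are given as a description.

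**Figure D1:**
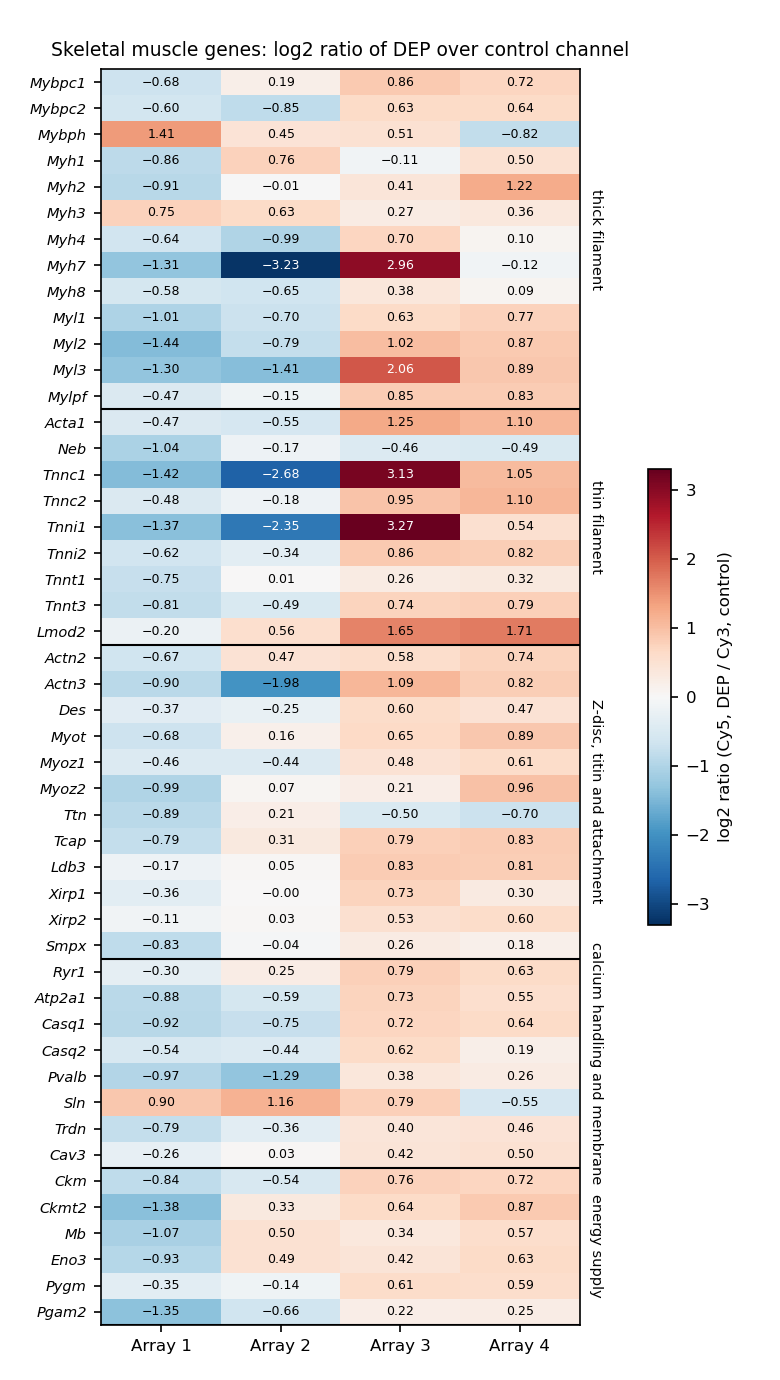
Log2 ratio of the DEP over the control channel (colour and printed value) for each of the 48 muscle genes, in rows grouped by role, on arrays 1 to 4. Most rows pass from below 0 on array 1 to above 0 on arrays 3 and 4, and Myh7, Tnnc1 and Tnni1 hold the extreme values, from -3.23 on array 2 to 3.27 on array 3.

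Signals set to the mean of the 8 extracts show which extracts made this order. Over the 45 genes well above background in every extract, the median log2 signal stood 1.14 above a gene's own mean in the control extract of array 1, beside 0.41 for all genes there. It stood at -0.13, -0.55 and -0.60 in the control extracts of arrays 2, 3 and 4, beside -0.04, -0.23 and -0.23 for all genes. In the DEP extracts of arrays 1 to 4 it was 0.42, -0.36, 0.11 and 0.01, beside 0.40, 0.02, -0.21 and -0.19. Beside all genes, the muscle genes thus stood higher in the control extract of array 1 and in the DEP extracts of arrays 3 and 4, and lower in the DEP extract of array 2 and in the control extracts of arrays 2, 3 and 4. With every extract set to its own median, the control extracts spanned a wider range than the DEP extracts for 38 of the 45 genes, beside 57.1% of 14275 named genes. If the dyes were the other way round, these would be the DEP extracts. The median span was 1.28 in control and 0.81 in DEP, and 0.49 and 0.43 over all genes.

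Genes of the thick filament comprised 13 myosins, light chains and binding proteins. Their median ratios were -0.68, -0.65, 0.63 and 0.64 on arrays 1 to 4. Myh4, the IIb heavy chain of the fastest fibres, had signals of 114172, 49964, 94007 and 95262 in the DEP extracts of arrays 1 to 4 and of 178495, 99246, 57937 and 88841 in the control extracts. Its ratios were -0.64, -0.99, 0.70 and 0.10, with a mean of -0.21 ± 0.76 (SD, n = 4, limma adjusted p = 0.731). Both groups overlapped, the lowest extract being DEP on array 2 and the highest control on array 1. Myh2, the IIa heavy chain, gave -0.91, -0.01, 0.41 and 1.22. Myh1, the IIx heavy chain, gave -0.86, 0.76, -0.11 and 0.50 and was the exception among the 14 fast isoforms, since the other 13 were below 0 on arrays 1 and 2 and above 0 on arrays 3 and 4. Heavy chain genes are near copies of each other, and cross-hybridisation between their probes was not tested.

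The fast light chains followed the common order on every array. Myl1, an essential light chain of fast fibres, gave -1.01, -0.70, 0.63 and 0.77, with a mean of -0.08 ± 0.91. Mylpf, the regulatory light chain of fast fibres, gave -0.47, -0.15, 0.85 and 0.83, with a mean of 0.27 ± 0.68. The slow light chains swung further. Myl2, the slow and cardiac regulatory chain, gave -1.44, -0.79, 1.02 and 0.87, with a mean of -0.08 ± 1.22. Myl3, the slow and cardiac essential chain, gave -1.30, -1.41, 2.06 and 0.89, with a mean of 0.06 ± 1.70. The myosin binding proteins did not part in the same way, with -0.60, -0.85, 0.63 and 0.64 for the fast Mybpc2 and -0.68, 0.19, 0.86 and 0.72 for the slow Mybpc1.

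The 3 genes listed as developmental isoforms behaved differently from each other. Myh3, the embryonic heavy chain, had low signals of 210, 109, 93.8 and 65.5 in the DEP extracts and of 125, 70.4, 77.8 and 50.9 in the control extracts, all well above background. In this probe the DEP signal was the higher of the pair on each of the 4 arrays, while the groups overlapped. Its ratios of 0.75, 0.63, 0.27 and 0.36 had a mean of 0.50 ± 0.22 (SE 0.13), with an unadjusted p of 0.012 and an adjusted p of 0.178 by limma. Its dimmer probe gave 0.94, 0.99, 0.42 and -0.03, with a mean of 0.58. Mybph, myosin binding protein H, gave 1.41, 0.45, 0.51 and -0.82, higher on 3 of 4 arrays, with a mean of 0.39 ± 0.92. Myh8, the perinatal heavy chain, gave -0.58, -0.65, 0.38 and 0.09, and its dimmer probe -0.50, -0.45, 0.08 and -0.08. The geometric mean signal of the brighter Myh8 probe was 104208 in DEP and 119055 in control, above the 84542 and 97718 of Myh4. Whether this probe also reads other heavy chains was not tested.

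Slow fibre genes held the widest swings among the 48 genes. Myh7, the slow and cardiac beta heavy chain, had signals of 969, 104, 930 and 924 in the DEP extracts and of 2400, 974, 120 and 1008 in the control extracts. It was well above background in all 8 extracts, and 2 of them stood far below the rest, DEP on array 2 and control on array 3. The ratios were -1.31, -3.23, 2.96 and -0.12, with a mean of -0.43 ± 2.59 (limma adjusted p = 0.836). With extracts set to their medians, Myh7 lay 6.99-fold below the lowest other DEP extract on array 2, and 6.99-fold below the lowest other control extract on array 3.

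The slow troponin genes repeated this. Tnni1, the slow inhibitory subunit that holds actin and myosin apart at rest, had signals of 166, 34.7, 131 and 141 in DEP and of 429, 177, 13.6 and 97.5 in control. Tnnc1, the calcium-binding subunit of slow and cardiac muscle, had 78.5, 10.8, 64.9 and 69.6 in DEP and 211, 69.4, 7.41 and 33.7 in control. The low extracts were again DEP on array 2 and control on array 3. The signal was not well above background for Tnni1 in control on array 3, nor for Tnnc1 in DEP on array 2 and in control on arrays 3 and 4, so that the size of these falls is uncertain. Ratios were -1.37, -2.35, 3.27 and 0.54 for Tnni1 and -1.42, -2.68, 3.13 and 1.05 for Tnnc1, both with a mean of 0.02, and the SD was 2.47 and 2.59.

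Of 17299 named genes, 3 had a ratio past 4-fold lower on array 2 and past 4-fold higher on array 3, and they were Myh7, Tnnc1 and Tnni1. This is 0.0173% of the genes, where 1.95% were past 4-fold lower on array 2 alone and 0.804% past 4-fold higher on array 3 alone. The pattern was chosen after the values of Myh7 had been seen, so it carries no test. The value depends on the background correction for the dim probes. After normexp background correction and loess, the ratios of Myh7 were -1.22, -2.78, 2.30 and -0.13, those of Tnni1 -0.95, -1.24, 1.12 and 0.30, and those of Tnnc1 -0.82, -0.71, 0.91 and 0.42.

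Smaller falls in the same 2 extracts were seen in other genes. Relative to the lowest other extract of its group, Myl3 was 1.88-fold lower in DEP on array 2 and 3.02-fold lower in control on array 3. Actn3, the alpha-actinin of fast fibres, was 2.56-fold and 1.95-fold lower, and Myh4 was 1.71-fold and 1.47-fold lower. Actn3 is a fast fibre gene, and its ratios of -0.90, -1.98, 1.09 and 0.82 swung more than those of the other 13 fast isoforms. By Pearson correlation over the 8 extracts, with extracts set to their medians, the genes most like Myh7 among 15627 compared were Myh4 at 0.97, Tnnc1 and Enpp1 at 0.95, Tnni1 at 0.94, and Clmp and Myl3 at 0.92. The next were Camk2a and Myh8 at 0.90, Actn3 at 0.88 and Pvalb at 0.87. These correlations were not recomputed without the 2 low extracts, and 7 of these 10 genes belong to the muscle list.

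**Figure D2:**
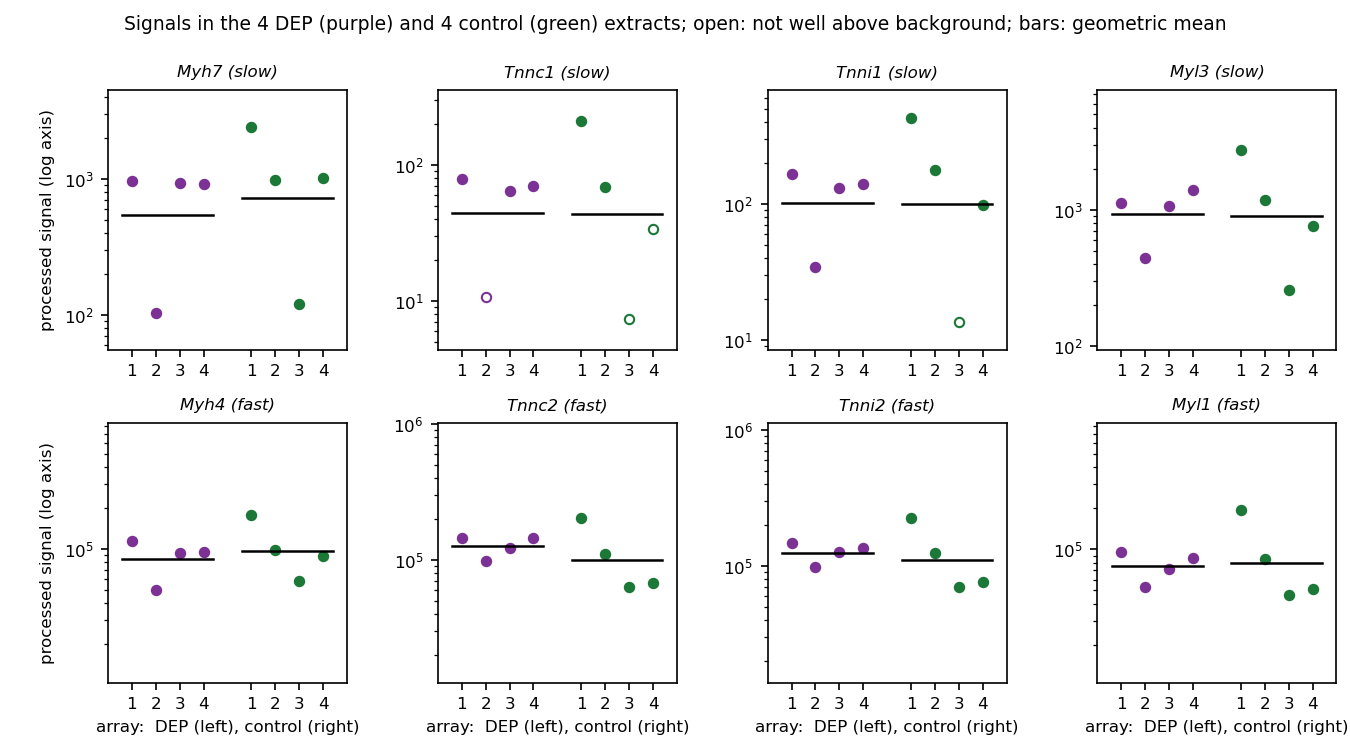
Processed signal (log axis) of 4 slow fibre genes in the upper row and their fast partners in the lower row, in the DEP extracts (left) and control extracts (right) of arrays 1 to 4, with bars at the geometric mean and open points where the signal was not well above background. Myh7, Tnnc1 and Tnni1 drop in DEP on array 2 and in control on array 3, while Tnnc2 and Tnni2, with extracts set to their medians, are at most 1.12-fold below the next extract there.

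Not every slow isoform shared these falls. Tnnt1, the slow troponin T that anchors the complex to tropomyosin, gave -0.75, 0.01, 0.26 and 0.32, with a mean of -0.04 ± 0.49. Myoz2, a Z-disc protein of slow fibres, gave -0.99, 0.07, 0.21 and 0.96, with a mean of 0.06 ± 0.80. Casq2, the calsequestrin of slow and cardiac muscle, gave -0.54, -0.44, 0.62 and 0.19, with a mean of -0.04 ± 0.55. The difference between arrays 3 and 2 was 6.19 for Myh7, 5.81 for Tnnc1, 5.62 for Tnni1 and 3.47 for Myl3. It was 1.80 for Myl2, 1.07 for Casq2, 0.67 for Mybpc1, 0.25 for Tnnt1 and 0.14 for Myoz2, so that the 9 slow isoforms fell along a wide range.

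Between fast and slow isoforms the difference in ratio changed sign between arrays, and its size depended on the normalization. The median of the 14 fast isoforms was -0.83, -0.54, 0.71 and 0.71 on arrays 1 to 4, and that of the 9 slow isoforms was -1.30, -0.79, 1.02 and 0.72. The fast minus slow difference of these medians was 0.47, 0.24, -0.31 and -0.02, with a mean of 0.10 ± 0.33 (SD, n = 4), above 0 on 2 of 4 arrays. With median centring in place of the deposited normalization the difference was 0.97, 0.52, 0.35 and 0.47, with a mean of 0.57 ± 0.27, above 0 on 4 of 4 arrays. With normexp and loess it was 0.23, 0.21, -0.23 and 0.21, above 0 on 3. Matched pairs, on the deposited normalization, had no common direction. Myh4 minus Myh7 was 0.66, 2.24, -2.26 and 0.23. Tnnc2 minus Tnnc1 was 0.94, 2.50, -2.18 and 0.05, and Tnni2 minus Tnni1 was 0.75, 2.01, -2.41 and 0.29. In each of these 3 pairs the fast gene had the higher ratio on arrays 1, 2 and 4 and the lower ratio on array 3. Myl1 minus Myl3 was 0.29, 0.71, -1.43 and -0.12, and Mylpf minus Myl2 was 0.97, 0.63, -0.16 and -0.04. The remaining 4 pairs ranged from -1.03 to 0.53, and each of them had both signs.

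**Figure D3:**
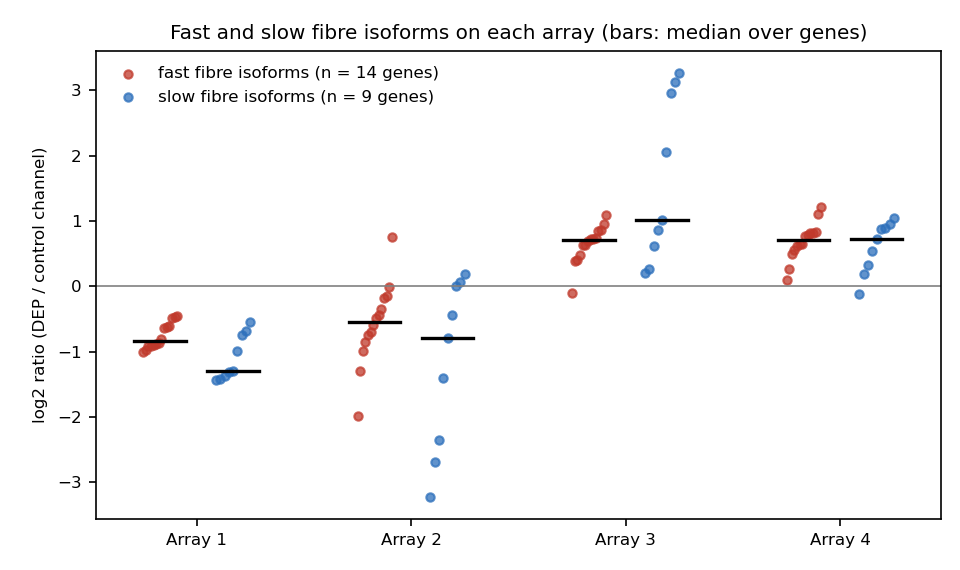
Log2 ratio of the DEP over the control channel on each array for the 14 fast fibre isoforms (red) and the 9 slow fibre isoforms (blue), each point a gene and each bar the median. The slow isoforms spread from -3.23 to 0.19 on array 2 and from 0.21 to 3.27 on array 3, more widely than the fast isoforms.

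The promoters of Myh7, Tnni1 and Tnnc1, and that of Myh4 as the fast gene most like them, are shown because these genes moved together over the extracts. Each runs from 250 bases before to 50 bases after an annotated start in RefSeq on GRCm38.p6, and capitals mark matches to the motifs searched. The windows are chr14:54994577-54994876 on the minus strand for Myh7, chr1:135799171-135799470 on the plus strand for Tnni1, chr14:31208062-31208361 on the plus strand for Tnnc1 and chr11:67237562-67237861 on the plus strand for Myh4. Myh7 and Tnni1 each have 2 annotated starts, of which the upper window is shown.
Myh7: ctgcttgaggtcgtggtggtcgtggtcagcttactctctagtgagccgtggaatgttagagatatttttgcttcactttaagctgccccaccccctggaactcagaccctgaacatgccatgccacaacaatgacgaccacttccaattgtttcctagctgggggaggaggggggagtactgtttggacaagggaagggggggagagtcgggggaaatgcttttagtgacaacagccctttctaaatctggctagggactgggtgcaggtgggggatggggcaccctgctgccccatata
Tnni1: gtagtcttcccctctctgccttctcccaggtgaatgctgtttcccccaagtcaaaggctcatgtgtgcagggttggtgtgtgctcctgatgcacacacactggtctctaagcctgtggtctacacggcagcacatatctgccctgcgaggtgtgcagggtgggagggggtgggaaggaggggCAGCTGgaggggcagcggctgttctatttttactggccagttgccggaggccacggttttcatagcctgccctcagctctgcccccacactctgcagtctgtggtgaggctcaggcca
Tnnc1: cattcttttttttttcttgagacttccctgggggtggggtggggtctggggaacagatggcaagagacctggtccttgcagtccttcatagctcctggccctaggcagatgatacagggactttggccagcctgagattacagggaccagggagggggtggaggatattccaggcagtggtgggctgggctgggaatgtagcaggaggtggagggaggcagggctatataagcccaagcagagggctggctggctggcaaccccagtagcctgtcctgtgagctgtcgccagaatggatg
Myh4: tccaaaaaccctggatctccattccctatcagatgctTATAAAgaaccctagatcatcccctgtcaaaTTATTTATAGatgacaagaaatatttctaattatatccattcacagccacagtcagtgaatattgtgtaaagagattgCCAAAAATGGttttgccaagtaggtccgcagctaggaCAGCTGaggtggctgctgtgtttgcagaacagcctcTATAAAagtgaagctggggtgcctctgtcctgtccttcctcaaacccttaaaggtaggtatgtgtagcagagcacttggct

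Motifs were searched on both strands, namely CAGCTG (an E-box of the kind that myogenic factors bind), CATTCCT (an MCAT element), TATAAA, the MEF2 consensus and the CArG box. The Myh4 window held CAGCTG, a MEF2 match, a CArG box and 3 TATAAA matches, of which 1 overlaps the MEF2 match on the opposite strand. The Tnni1 window held CAGCTG alone, and the windows of Myh7 and Tnnc1 held none of the 5 as spelled. RefSeq windows were matched for 38 of the 48 genes, which gave 45 windows. CAGCTG was in 51.1% of these, beside 16.3% of all 32851 windows. The MEF2 consensus was in 9 of the 45, beside 3.19% of all windows, the CArG box in 11.1% of them beside 1.63%, TATAAA in 22.2% beside 13.6%, and CATTCCT in 6.67% beside 5.36%. By gene, CAGCTG was found for 5 of 10 fast and 4 of 9 slow isoforms and the MEF2 consensus for 3 of 10 and 2 of 9. A match is a run of letters and does not show that a factor was bound.

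The thin filament carries actin, the troponins and nebulin, and its 9 genes had median ratios of -0.75, -0.34, 0.95 and 0.82. Acta1, the skeletal actin, had signals of 137437, 65597, 97937 and 101485 in DEP and of 189834, 96175, 41090 and 47198 in control. DEP was lower on arrays 1 and 2 and more than 2-fold higher on arrays 3 and 4, at -0.47, -0.55, 1.25 and 1.1. The mean was 0.33 ± 0.98 (limma adjusted p = 0.66). The fast troponins moved with it, at -0.48, -0.18, 0.95 and 1.1 for the calcium sensor Tnnc2, -0.62, -0.34, 0.86 and 0.82 for the inhibitor Tnni2, and -0.81, -0.49, 0.74 and 0.79 for Tnnt3. Their means were 0.35, 0.18 and 0.06, with SDs of 0.79, 0.77 and 0.83. With median centring the means were 1.31, 1.28 and 0.86, Acta1 was at 1.35, and Tnni2 passed with an adjusted p of 0.0496 by limma, as did 12.4% of named genes.

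Lmod2, leiomodin 2, which lengthens thin filaments, had the highest mean ratio of the list on the deposited normalization (the lowest with the sign turned). Its signals were 92.3, 38.2, 73.5 and 70.3 in DEP and 106, 26, 23.5 and 21.5 in control, and the control signal was well above background on 2 of 4 arrays. Ratios of -0.20, 0.56, 1.65 and 1.71 gave a mean of 0.93 ± 0.92 (unadjusted p = 0.0535, adjusted p = 0.277 by limma), higher on 3 of 4 arrays. The mean was 0.25 with normexp and loess and 0.18 with median centring, below those of Acta1, Sln and Ldb3 in both settings. Neb, nebulin, the giant ruler of thin filament length, had the lowest mean on the deposited normalization (the highest with the sign turned). Its ratios of -1.04, -0.17, -0.46 and -0.49 were below 0 on all 4 arrays, with a mean of -0.54 ± 0.37 (SE 0.17, unadjusted p = 0.0258, adjusted p = 0.221 by limma). Its signals were 3561, 1700, 3016 and 2432 in DEP and 7342, 1908, 4148 and 3423 in control, and the groups overlapped. The dimmer nebulin probe did not repeat this and gave -0.67, 0.12, 0.21 and 0.25, with a mean of -0.02.

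The Z-disc, titin and the fibre's attachment to its membrane were represented by 12 genes, with median ratios of -0.68, 0.04, 0.59 and 0.67. Ttn, titin, the spring of the sarcomere, gave -0.89, 0.21, -0.50 and -0.70, with a mean of -0.47 ± 0.48 (unadjusted p = 0.0751, adjusted p = 0.308 by limma). Its 4 probes disagreed. A pair of them gave -0.81, -0.20, -1.27 and -1.43, and -0.92, -0.15, -1.33 and -1.33, both with a mean of -0.93, while another gave -0.55, -0.34, 0.32 and 0.37, with a mean of -0.05. The probe with a mean of -0.05 was annotated to a different transcript of the gene than the others. Where each probe lies on the transcript was not examined, and the means of the 4 ranged from -0.93 to -0.05.

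Other Z-disc and attachment genes stayed within the spread between arrays. Des, desmin, the intermediate filament that links Z-discs, had signals of 3758, 1867, 2576 and 2095 in DEP and of 4867, 2215, 1694 and 1509 in control. Its ratios were -0.37, -0.25, 0.60 and 0.47, with a mean of 0.11 ± 0.50. Ldb3, a Z-disc scaffold also called Cypher, gave -0.17, 0.05, 0.83 and 0.81, with a mean of 0.38 ± 0.52 (limma adjusted p = 0.403). The fast Myoz1 gave -0.46, -0.44, 0.48 and 0.61. Actn2, Myot, Tcap, Xirp1, Xirp2 and Smpx had mean ratios between -0.11 and 0.28, and each of the 6 was below 0 on array 1 and above 0 on arrays 3 and 4.

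The calcium handling and membrane genes numbered 8, with median ratios of -0.67, -0.40, 0.67 and 0.48. Ryr1, the calcium release channel of the sarcoplasmic reticulum, had signals of 8716, 4150, 5584 and 5165 in DEP and of 10712, 3485, 3235 and 3344 in control. Its ratios of -0.30, 0.25, 0.79 and 0.63 were above 0 on 3 of 4 arrays, with a mean of 0.34 ± 0.48 (limma adjusted p = 0.423). Atp2a1, SERCA1, the calcium pump of fast fibres, gave -0.88, -0.59, 0.73 and 0.55, with a mean of -0.05 ± 0.81 (limma adjusted p = 0.943). Casq1, the fast fibre calsequestrin that stores calcium, gave -0.92, -0.75, 0.72 and 0.64, with a mean of -0.08 ± 0.88. Release channel, pump and store thus took the same order over the arrays.

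The small regulators of calcium differed more. Sln, sarcolipin, an inhibitor of the SERCA pump, had signals of 6361, 5296, 8231 and 3094 in DEP and of 3403, 2369, 4749 and 4532 in control. DEP was higher on arrays 1 to 3 and lower on array 4, an order opposite to that of most muscle genes on arrays 1 and 4. Ratios of 0.90, 1.16, 0.79 and -0.55 gave a mean of 0.58 ± 0.77 (unadjusted p = 0.125, adjusted p = 0.375 by limma). Pvalb, parvalbumin, the calcium buffer of fast fibres that is also made by some neurons, had 119043, 46947, 62492 and 89441 in DEP and 233208, 114439, 48142 and 74752 in control. Its ratios of -0.97, -1.29, 0.38 and 0.26 had a mean of -0.41 ± 0.85 (limma adjusted p = 0.55). Trdn, triadin, which ties calsequestrin to the release channel, gave -0.79, -0.36, 0.40 and 0.46, with a mean of -0.07, and its dimmer probe had a mean of -0.73. Cav3, the muscle caveolin, gave -0.26, 0.03, 0.42 and 0.50, with a mean of 0.17 ± 0.35.

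The 6 fuel supply genes had median ratios of -1.0, 0.09, 0.52 and 0.61, and each was below 0 on array 1 and above 0 on arrays 3 and 4. Ckm, the cytosolic creatine kinase that rebuilds ATP, had signals of 39982, 21249, 30636 and 29399 in DEP and of 71705, 30806, 18094 and 17873 in control. Its ratios were -0.84, -0.54, 0.76 and 0.72, with a mean of 0.02 ± 0.83 (limma adjusted p = 0.973). Ckmt2, the mitochondrial creatine kinase, Mb, the oxygen store myoglobin, and Eno3, the muscle enolase, were below 0 on array 1 alone. They gave -1.38, 0.33, 0.64 and 0.87, then -1.07, 0.50, 0.34 and 0.57, and -0.93, 0.49, 0.42 and 0.63, in that order. Pgam2, the muscle phosphoglycerate mutase, gave -1.35, -0.66, 0.22 and 0.25, with a mean of -0.38 ± 0.77 (limma adjusted p = 0.538), and Pygm, the muscle glycogen phosphorylase, gave -0.35, -0.14, 0.61 and 0.59, with a mean of 0.18 ± 0.50.

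Muscle genes outside the list took the order of below 0 on array 1 and above 0 on arrays 3 and 4 for 8 of 13 other excitation-contraction coupling genes, 9 of 12 other fuel genes and 11 of 18 other sarcomere genes, beside 18.1% of named genes. The median ratios of the 13 coupling genes, of which Hrc, Cacna1s and Jsrp1 were the brightest, were -0.67, -0.30, 0.36 and 0.38. Those of the 12 fuel genes were -0.72, -0.01, 0.37 and 0.50, and those of the 18 sarcomere genes, led by the tropomyosins Tpm1, Tpm3 and Tpm2, were -0.43, 0.06, 0.43 and 0.36. An unadjusted p under 0.05 by limma was reached by 1 of the 13, 0 of the 12 and 1 of the 18, against 16.7% of all named genes. Genes of the muscle membrane and the dystrophin complex swung less, at -0.12, 0.25, 0.24 and 0.24 over 13 genes, of which 3 reached it and 4 took the order. The atrophy ligases Fbxo32 and Trim63, which mark muscle wasting, gave 0.73, -0.09, 0.08 and -0.27, and -0.54, -0.31, 0.71 and 0.33, with means of 0.11 and 0.05.

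The myogenic regulators and satellite cell genes lay above 0 on 3 of 4 arrays, with medians of -0.10, 0.54, 0.59 and 0.57 over 10 genes. Of these 9 had a mean above 0 and 1 below (turned, 1 and 9), and 4 reached an unadjusted p under 0.05 by limma, against 16.7% of all named genes, and none an adjusted p of 0.05. Myf6 gave -0.42, 0.19, 0.48 and 0.29, with a mean of 0.13 ± 0.39. Mef2a gave 0.54, 0.64, 0.41 and 0.47, with a mean of 0.52 ± 0.10 (limma adjusted p = 0.141), higher on 4 of 4 arrays. The 2 past 2-fold, both higher (turned, lower), stood beside 2.15% of named genes past 2-fold higher. They were Myog, at 0.77, 1.64, 1.64 and 1.33 with a mean of 1.34, and Myod1, at 0.47, 0.92, 1.41 and 1.64 with a mean of 1.11. Both were named after their values were seen, and both had a control signal well above background on 1 of 4 arrays. Beside these and Mef2a, the gene with an unadjusted p under 0.05 by limma was Pax7. Its signal was well above background on 1 array in DEP and on 0 in control. Myf5 was well above background in no extract.

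Markers of other tissues did not all share the order of the muscle genes. Smooth muscle genes had medians of -0.23, 0.27, -0.96 and -0.06 over 8 genes, with Tagln, Acta2 and Smtn the brightest, and 0 of the 8 were below 0 on array 1 and above 0 on arrays 3 and 4. Over 9 heart muscle genes, 6 of which are also among the 18 sarcomere genes, the medians were -0.43, -0.26, -0.03 and 0.06. In both channels on all arrays, 5 of the 9 were well above background, with Myl4, Actc1 and Mybpc3 the brightest. The atrial light chain gene Myl7 was well above background in no extract. The genes of cerebellum and neurons had the widest range of these lists, at -2.46, -2.62, -0.33 and 0.20, with a mean below 0 for 13 of 13 (turned, above 0 for 13 of 13) and past 2-fold lower (turned, higher) for 8 of 13, beside 730 of 17962 named genes. Over the 9 of them well above background in every extract, their median log2 signal stood 1.54 above the mean in the control extract of array 1, where muscle genes were also highest, and 1.09 in that of array 2, where muscle genes stood at -0.13. Macrophage and neutrophil genes gave -0.68, 0.01, 0.47 and 0.56 over 9 genes, of which 7 took the order of most muscle genes on arrays 1, 3 and 4. Red cell genes gave -0.89, 0.19, 0.45 and 0.15 over 6 genes, of which 4 took it. Bone genes gave -0.46, 0.21, 0.15 and 0.63, adipocyte genes -0.06, 0.59, -0.33 and 0.77, and airway-type epithelium -0.15, 0.31, -0.31 and -0.54. The part of tissue content in the ratios of the muscle genes was not tested.

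**Figure D4:**
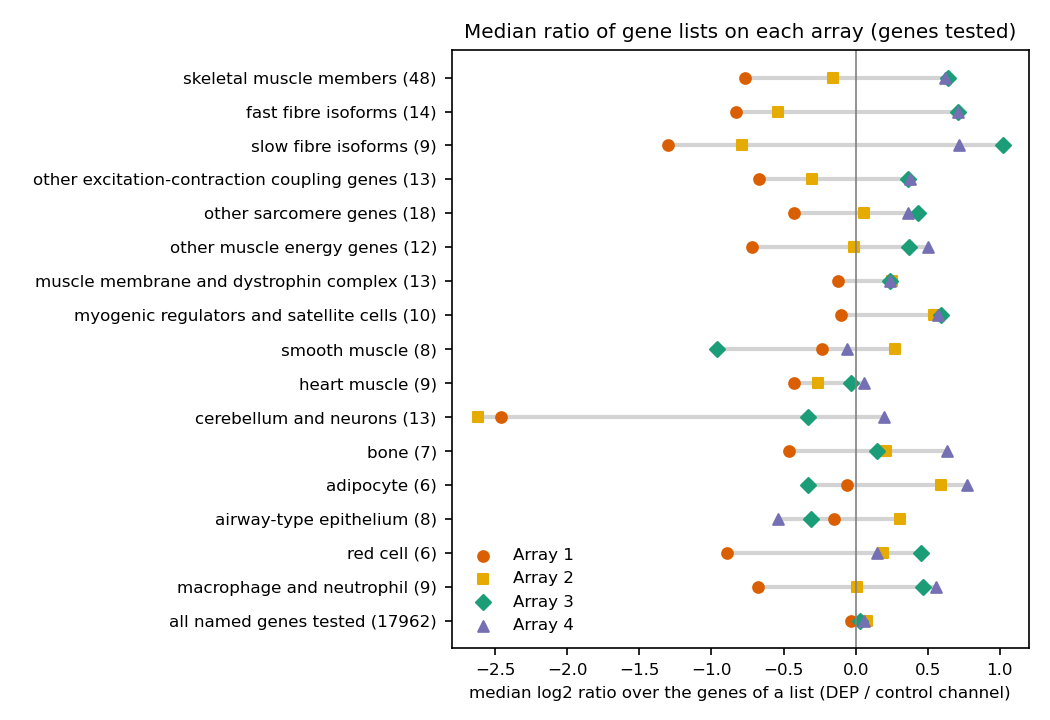
Median log2 ratio of the DEP over the control channel on each array (symbols) for the muscle genes, other gene lists and all named genes, with the number of genes in brackets. The muscle genes and the fast and slow isoforms run from array 1 on the left to arrays 3 and 4 on the right, all named genes stay between -0.03 and 0.08, and the neuronal genes reach -2.62 on array 2.

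Across the 48 genes the ratios of arrays 1 and 2 correlated at a Pearson r of 0.53 and those of arrays 3 and 4 at 0.31, while arrays 2 and 3 were opposed at -0.71. The values for all named genes were 0.62, 0.12 and 0.39, so that arrays 2 and 3 ran alike over the genes at large and against each other over these 48. The -0.71 includes the extreme values of Myh7 and of the dim Tnnc1 and Tnni1, and it was not recomputed without them. Over the 14 fast isoforms, which do not include these genes, arrays 2 and 3 correlated at -0.56. Turning the sign of array 4 gave a median over the muscle genes of -0.21, and turning that of array 1 gave 0.41. These correlations are across genes that share arrays and dyes, and the genes are not independent replicates.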

How the data were processed

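RNA of mouse middle ears was measured on 4 arrays of 1 slide and 1 scan, so no batch could be tested; the labels call the arrays biological replicates, and all 4 were treated as replicates of 1 comparison. The authors scanned the arrays and quantified the spots with Agilent Feature Extraction 10.10.1.1, per the submitters' processing notes, and the deposited processed signals are intensities, background-subtracted and dye-normalized within each array. The deposited log10 ratios are those of Cy5 over Cy3 signal and are 0 where the software gave none. These authors' log10 ratios were divided by the log10 of 2 to give log2 ratios here; flagged spots (164 to 274 per array) and spots without a ratio (6179 to 8558) were left out. Spots of a probe were averaged, 27655 of 39429 probes were named by accession through RefSeq tables of GRCm38.p6, and a gene was read by its brightest probe. The 31577 probes with a ratio on at least 3 arrays were tested against 0, two-sided, with limma 3.58.1 in R 4.3.3 (lmFit, eBayes, Benjamini-Hochberg over all of them), which was tested on simulated data. Signals of the extracts were not normalized between arrays unless stated. The number of arrays limits the precision.

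The members and lists were chosen with earlier results of these data known. Named with values were both genes of each fast and slow pair, the 5 highest and 5 lowest mean ratios, 8 landmark genes and at most 3 bright genes of other lists; exceptions are stated, and a gene that the rule would name among the other lists is not reported here. Alternatives were normexp (offset 50) with loess or median centring, the authors' series table of log10 ratios, filters on dim probes, flagged spots kept, the mean of a gene's probes, other variance models and each array left out. The sign of array 1 or 4 was turned as an alternative chosen after seeing the data. Of the columns with values per sample, 0 stayed unused for want of a sample. Pathway and PCR data are not analysed here, and the concentration of DEP is given inconsistently in the methods.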

Additional observations from a re-analysis of the deposited data

Results flagged for a closer look

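Of 57 sets of 4 array values tested for a value far from the others, 2 stood apart, where chance gives about 1 in 20. Both were fuel supply genes on array 1. The Mb ratio there was -1.07, while the other arrays lay between 0.34 and 0.57, a gap of 0.861 of the whole range. The Eno3 ratio there was -0.93, while the others lay between 0.42 and 0.63, a gap of 0.866 of the range.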

How the results depend on the processing

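The count of muscle genes past 2-fold was 0 in most settings. It was 4 after normexp with median centring (Acta1 at 1.35, Tnnc2 at 1.31, Tnni2 at 1.28 and Tcap at 1.03) beside 1.67% of named genes past 2-fold higher, and 1 with the sign of array 1 turned (1.52%). It ranged from 0 to 3 with an array left out: Lmod2 without array 1 or 2, and Myh7, Tnnc1 and Tnni1, all lower, without array 3, beside 4.34%, 5.96%, 6.81% and 10.3% of named genes without arrays 1 to 4. The count with an unadjusted p under 0.05 by limma was 2. It became 19 with median centring, all higher (turned, lower), where the mean ratio was above 0 for 43 of the 48 (turned, 5). There 32.1% of named genes were called higher and the median over all named genes rose to 0.19. It was 10 with the sign of array 1 turned (5.96% of named genes), 1 with ordinary least squares (14.7%), and 1 to 11 with an array left out. The 11 came without array 1, when 15.5% of named genes were called. Under median centring Tnni2 alone passed an adjusted p of 0.05 by limma (0.0496), beside 12.4% of named genes. The median ratio of the muscle genes, 0.06, was 0.55 with median centring and ranged from -0.14 to 0.36 with an array left out. The order below 0 on array 1 and above 0 on arrays 3 and 4 held for 40 of the 48 with loess (15.9% of named genes) and for 23 with median centring (18.5%). The fast minus slow difference, 0.10, was 0.57 with median centring and ranged from -0.03 to 0.23 with an array left out. Neb lost its unadjusted p under 0.05 with median centring, with the mean of its probes (-0.28), without array 3 (-0.57) or 4 (-0.56), where fewer arrays were tested, with ordinary least squares, and with array 1 or 4 turned. Myh3 lost it without array 2 (0.46) and with array 4 (0.32) or 1 (0.13) turned. The Myh3 mean fell from 0.50 to 0.24 with normexp and either loess or median centring, and kept an unadjusted p under 0.05 by limma in both. The mean changed sign for 5 of the 32 genes followed with loess and for 12 with median centring. The cause was not tested. The ratios within arrays already pair the DEP and control extract of an array, and no further paired analysis was possible because the labels pair no samples beyond the array. Dim probes such as Tnnc1 and Lmod2 are limited by their signal over background.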
